A study of Rattus norvegicus with 46 samples.

Results

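The transcripts described here are those of the collagens outside the fibre types I, II, III, V and XI in rat shoulder tissue after a rotator cuff injury. They were every symbol of the form Col, number, a, number in the authors' deposited gene tables, without the fibre chains Col1a1, Col2a1, Col3a1, Col5a1, Col5a2 and Col11a1. That gave 36 symbols of 23747, and it kept 4 fibre-type chains that stand outside the excluded list (Col5a3, Col11a2, Col24a1 and Col27a1). Counts per library could be assigned to 32 of the 36, and Col4a4, Col11a2, Col25a1 and Col26a1 have only the authors' deposited fold changes. Col6a3, the third of the classical type VI chains, is not among the symbols of the deposited gene tables and so was not analysed here.

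The 46 libraries hold RNA from the supraspinatus tendon, 1 of the rotator cuff tendons, and from the subacromial bursa, the gliding tissue that lies over it. In operated rats the tendon was cut through (tenotomy), and the bursa was either left in place ("intact") or taken out in the same operation ("removed"). The 8 groups are bursa of rats without an operation (n = 5), bursa 3 days and 14 days after tenotomy (n = 6 each), tendon of rats without an operation (n = 5), and cut tendon at day 3 and at day 14, each with the bursa intact or removed (n = 6 each). The labels state no strain, sex, age or genetic change for any group. The labels do not tie libraries to rats, and tendons of both shoulders were collected, so some libraries may share a rat and the p-values measure the spread between libraries.

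Collagens are built of 3 chains wound around each other, and their families differ in what they assemble into. Type IV chains form the sheet of basement membranes under endothelium, around muscle fibres, fat cells and Schwann cells, with types XV and XVIII at its face and type VII as the fibril that anchors it. FACITs (fibril-associated collagens with interrupted triple helices) sit on the surface of collagen fibres and set their spacing. Type VI forms beaded filaments around cells, types VIII and X form hexagonal nets, and transmembrane collagens stay in the membrane of the cell that makes them. In tendon, types VI, XII and XIV surround the fibre bundles, and type XXII marks the junction between muscle and tendon.

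Library totals were 12425823 to 69947597 estimated counts, and a single bursa library of day 14 accounted for the upper end. Levels are CPM, estimated counts scaled to the same library size in every library. They are not divided by transcript length, so they compare 1 gene between groups and not 2 genes with each other. The tissue labels were checked against marker lists. The summed level of the 8 counted of 9 tendon cell markers was 4149 to 10130 CPM in control tendon and 62.24 to 2685 CPM in control bursa, and 7 of 9 adipocyte markers summed to 12140 to 31800 CPM in control bursa and 734.3 to 1177 CPM in control tendon. The 5 synovial lining markers summed to a median of 524.6 CPM in control bursa and 2503 CPM in control tendon. Some libraries stood apart. In control bursae 1 and 2, 18 of the 19 collagens with a mean of at least 10 CPM in that group lay below the other 3 control bursae, with Col7a1 as the exception. These 2 libraries also held the highest adipocyte sums of the group (23840 and 31800 CPM, against 12140 to 14670 CPM in the other 3), and control bursa 1 a muscle marker sum of 20480 CPM against 514.4 to 2663 CPM in the other 4, and the part of these tissues in the bursa results was not tested. Control bursa 4 held the highest tendon cell sum of its group (2685 CPM) and a cartilage sum of 1220 CPM, against 0.6807 to 1.437 CPM in the other 4. Bursa results are therefore given with all control bursae and, for many of them, also without control bursae 1 and 2. Calls that ended without control bursa 4 are named as such. A bursa value given only with all controls is not thereby shown to be independent of these libraries.

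In cut tendon most of these collagens changed, in both directions, and by day 14 the rises outnumbered the falls. At day 3 with the bursa intact, 15 of 29 tested collagens rose over control tendon and 10 fell (adjusted p under 0.05, edgeR quasi-likelihood test), on a background in which 65.5% of 16411 features were called (31% up, 34.5% down). A feature is a gene with an assigned symbol, or a single transcript to which no symbol could be assigned. Shares of all features are therefore not shares of genes alone. At day 14, 19 rose and 8 fell, with 66.2% of all features called (33.1% up, 33% down). With the bursa removed, 15 rose and 11 fell at day 3 (62.9% of all features called, 29.6% up and 33.3% down), and 17 rose and 7 fell at day 14 (65.2%, 32.6% up and 32.6% down). The median log2 fold change of the 29 was 0.55 at day 3 and 1.91 at day 14 with the bursa intact, and 0.57 and 1.53 with it removed. The medians over all features in the same comparisons lay between -0.05 and 0.01. The share of collagens called was thus above the background in each, on a background that is itself high. The 4 comparisons share the same 5 control tendons. With the bursa intact, all cut tendons lay above all controls for 12 of the 29 and below them for 7 at day 3 (23.1% and 22.5% of all features), and for 16 and 6 at day 14 (23.8% and 23%). With it removed these numbers were 11 and 4 at day 3 (18.6% and 17.4%) and 16 and 5 at day 14 (23% and 21.9%).

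In the bursa of operated rats the changes were fewer and mainly upward. At day 3, 13 of 28 tested collagens rose and 5 fell (46.2% of 16344 features called, 22% up and 24.2% down), with a median log2 fold change of 0.59 against -0.06 over all features. At day 14, 11 rose and 1 fell (16.5% called, 9.27% up and 7.2% down), with a median of 0.67 against -0.05. Between day 3 and day 14, 5 rose and 1 fell (21.7% called, 9.5% up and 12.2% down). All operated bursae lay above all controls for 9 of the 28 and below them for 1 at day 3 (13.6% and 11.5% of all features), and for 4 and 0 at day 14 (6.57% and 3.93%). Day 14 lay wholly above day 3 for 3 and below it for 1 (7.01% and 7.37%). The bursa counts depend on the low control bursae: without control bursae 1 and 2, 10 rose and 9 fell at day 3, and 6 rose and 3 fell at day 14. Leaving out 1 library at a time, the day 14 count ranged from 8 to 15 and was lowest without control bursa 2, and the count between the days ranged from 4 to 7.

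**Figure D1:**
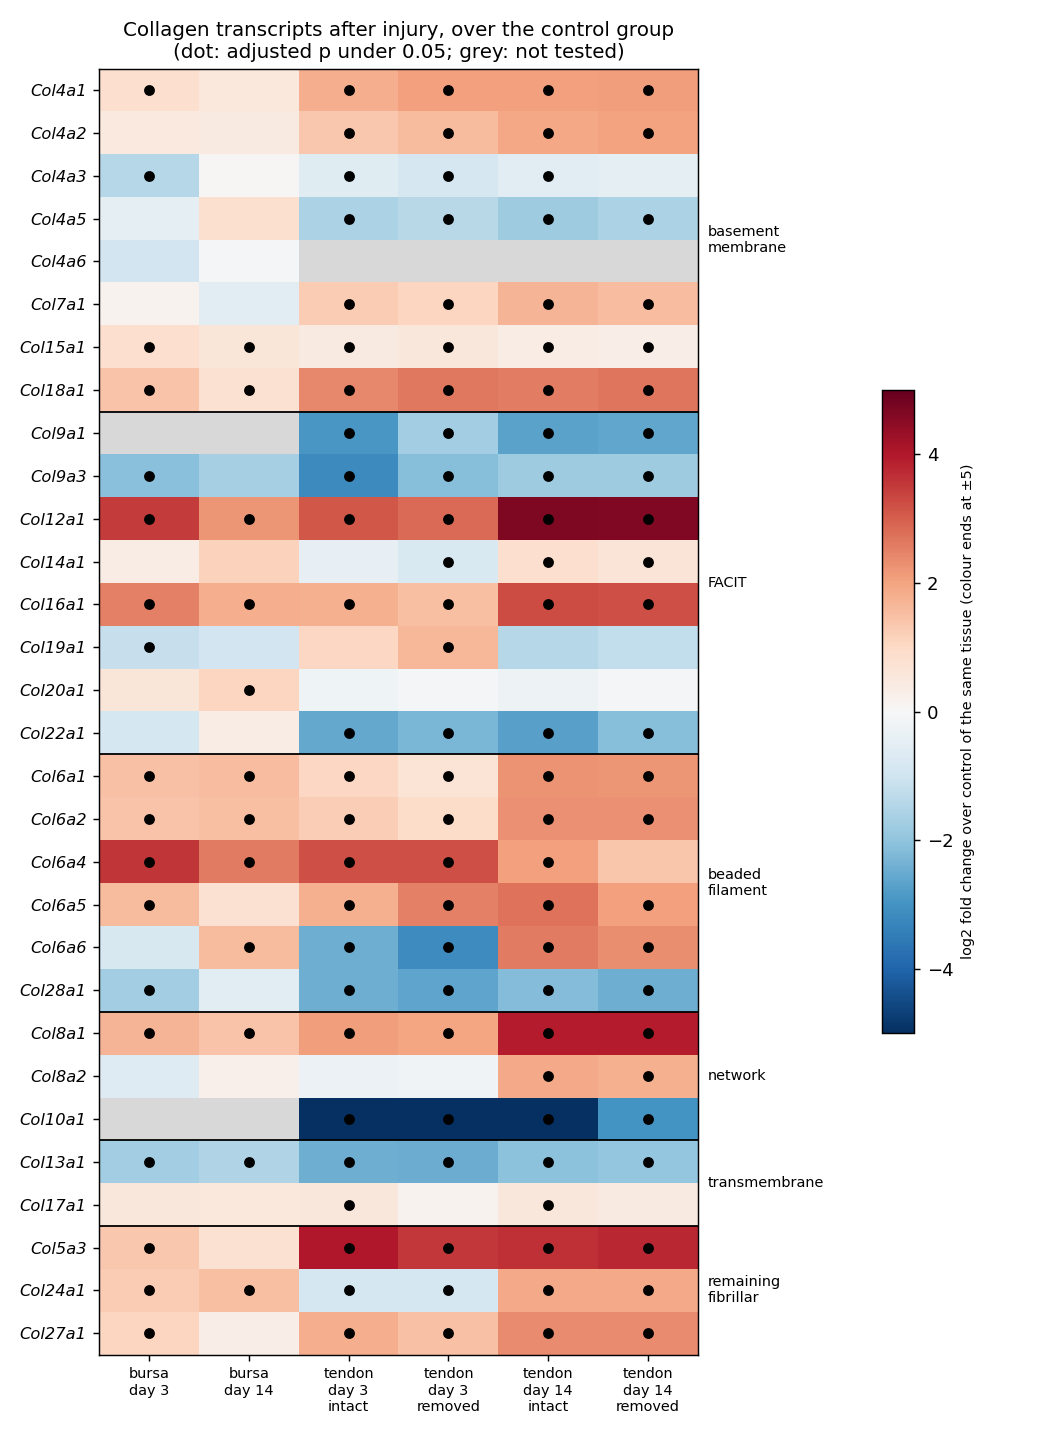
Log2 fold change of each tested collagen (rows, by family) over the control group of the same tissue in 6 comparisons (columns), with dots where the adjusted p was under 0.05 and grey cells where a gene was not tested. Col12a1 and Col8a1 are darkest red at day 14 in tendon (4.68 and 3.92 with the bursa intact), and Col6a6 turns from blue at day 3 (-2.43) to red at day 14 (2.58).

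Type IV collagen has 6 chains whose genes lie in head-to-head pairs, Col4a1 with Col4a2, Col4a3 with Col4a4 and Col4a5 with Col4a6, so that the 2 genes of a pair are read in opposite directions from neighbouring starts. In the RefSeq promoter table (rat build GRCr8), 76 bases separate the starts of Col4a1 and Col4a2 on chromosome 16, 412 those of Col4a3 and Col4a4 on chromosome 9, and 1414 those of Col4a5 and Col4a6 on chromosome X. The whole stretch between Col4a1 and Col4a2 is shown because these 2 genes rose together below, and the 100 bases before the starts of Col4a3 and Col4a5 because those genes went the other way in tendon. Each runs 5′ to 3′ on the plus strand, and capitals mark matches to GGGCGG, the core of a GC box, on either strand. CCAAT, the core of a CCAAT box, was searched on both strands too.
Between Col4a2 and Col4a1, chr16:84885521-84885596: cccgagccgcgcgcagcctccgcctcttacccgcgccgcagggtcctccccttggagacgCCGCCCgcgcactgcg
Before Col4a3, chr9:91323890-91323989: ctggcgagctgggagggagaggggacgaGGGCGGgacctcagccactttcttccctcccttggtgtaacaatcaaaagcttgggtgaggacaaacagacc
Before Col4a5, chrX:109907259-109907358: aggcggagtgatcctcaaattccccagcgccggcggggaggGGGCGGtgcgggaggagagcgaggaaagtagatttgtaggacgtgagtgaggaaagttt
Each stretch holds 1 GGGCGG match, found in 18.1% of 33469 promoters over the same 76 bases before the start and in 21.6% over 100 bases. None holds CCAAT, which 13% and 17.1% of promoters hold over those lengths. The stretch between Col4a1 and Col4a2 is 78.9% G and C, and the other 2 are 59% and 60%. A match is a run of letters and no evidence of binding.

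Col4a1 and Col4a2, the chains of basement membranes in every tissue, rose in cut tendon by day 3 and stayed high at day 14. Col4a1 stood at 444.3, 285.5, 594.6, 464.2 and 431.2 CPM in the 5 control tendons. With the bursa intact, its lowest, median and highest values were 1398, 1646 and 1834 CPM at day 3 and 1507, 1878 and 2262 CPM at day 14. No cut tendon reached down to the control range. The log2 fold changes were 1.83 ± 0.15 (SE, adjusted p = 3.37e-11) and 2.05 ± 0.15 (adjusted p = 5.84e-12). Col4a2 went from 158.9 to 334.3 CPM in control tendon to 532.6 to 736.7 CPM at day 3 and 844.5 to 1189 CPM at day 14, which are log2 fold changes of 1.36 ± 0.14 and 1.95 ± 0.14. Only Col4a2 of the pair also rose between the days with the bursa intact (0.59 ± 0.13, adjusted p = 0.000585, against 0.23 ± 0.13, adjusted p = 0.184, for Col4a1), a difference between the 2 genes that was not tested.

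The pair kept a narrow ratio. Over all 46 libraries the log2 ratio of Col4a1 to Col4a2 CPM had a mean of 1.05 and an SD of 0.20, while each gene ranged more than that in tendon alone. The group means of the ratio were 0.82 in control tendon, 1.29 and 1.27 at day 3 (bursa intact and removed) and 0.92 and 0.91 at day 14. In bursa they were 0.87, 1.25 and 1.01 for control, day 3 and day 14. All 18 day 3 libraries, bursa and tendon, lay at or above 1.1456, and all 28 others at or below 1.0668, so Col4a1 was higher relative to Col4a2 at day 3 in both tissues. Pearson's r of the 2 genes over the 46 libraries was 0.97 on the log2 scale, a description of libraries that share tissue and group, and it was 0.97 for deviations from the group means.

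In bursa the pair began higher. Control bursa stood at 932.9, 958.4, 2306, 2111 and 2125 CPM for Col4a1, with the first and second of these well below the rest, and at day 3 the lowest, median and highest values were 2379, 2851 and 3894 CPM. The log2 fold change of Col4a1 at day 3 was 0.83 ± 0.24 (adjusted p = 0.0096), and 0.47 (adjusted p = 0.0206) without control bursae 1 and 2. Col4a2 did not pass at day 3 (0.48 ± 0.21, adjusted p = 0.0702), and neither gene passed at day 14.

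The minor type IV chains, which build the basement membranes of particular epithelia, nerve and muscle, fell in cut tendon where the major pair rose. Col4a5 stood at 20.17, 16.72, 36.08, 31.39 and 21.47 CPM in control tendon and at 5.667 to 12.66 CPM at day 3 and 5.286 to 10.53 CPM at day 14 with the bursa intact. The 2 ranges did not meet the control range, and the log2 fold changes were -1.59 ± 0.25 (adjusted p = 3.3e-06) and -1.76 ± 0.25 (adjusted p = 8.34e-07). Col4a3 fell less, by 0.62 at day 3 (adjusted p = 0.00933) and by 0.57 at day 14 (adjusted p = 0.0156) on the log2 scale, and the day 14 call was lost without control tendon 1 or 3 (adjusted p up to 0.0741). With the bursa removed Col4a3 fell at day 3 (-0.85, adjusted p = 0.000745) but did not pass at day 14 (-0.43, adjusted p = 0.0645), while Col4a5 fell at both days (-1.37 and -1.57). Col4a4, the head-to-head partner of Col4a3, stood 0.74 lower at day 3 (adjusted p = 6.38e-06) and 0.32 lower at day 14 (adjusted p = 0.0467) on the log2 scale in the authors' deposited table. Col4a6 had 23 to 59 counts in total per tendon group and was not tested there.

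In bursa Col4a3 fell at day 3 and was higher again at day 14. It went from 15.5 ± 6.64 CPM (SD, n = 5) in control to 5.72 ± 1.86 CPM (n = 6) at day 3 and 16.1 ± 6.16 CPM (n = 6) at day 14. The fall at day 3 passed (-1.41 ± 0.32, adjusted p = 0.00217), as did the rise from day 3 to day 14 (1.45 ± 0.31, adjusted p = 0.00341), and the day 3 and day 14 ranges did not overlap (3.634 to 8.334 and 10.17 to 25.69 CPM). Col4a5 rose over the same interval (1.30 ± 0.28, adjusted p = 0.00349), from 32 ± 9.31 CPM to 81.1 ± 22.4 CPM. Its fall from control to day 3 passed the test only without control bursae 1 and 2 (-0.51, adjusted p = 0.163, and -0.87, adjusted p = 0.0143). The same held for Col4a6 (-0.97, adjusted p = 0.0694, and -1.30, adjusted p = 0.0291), which did not pass between the days (0.93, adjusted p = 0.113). Col4a4 followed its partner in the authors' deposited table, 1.16 lower at day 3 than in control (adjusted p = 1.71e-05) and 1.51 higher at day 14 than at day 3 (adjusted p = 8.92e-10), both on the log2 scale. In bulk tissue, fewer cells of a type and less RNA per cell cannot be told apart, here and below. Beside these values, 7 of 8 listed Schwann cell markers were counted, and their sum was 787 to 1675 CPM in control bursa, 382.7 to 566.2 at day 3 and 714.4 to 888.5 at day 14. The 7 counted of 9 adipocyte markers summed to a median of 14670, 6149 and 12340 CPM in the same order, and the part of these cells in the result was not tested.

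**Figure D2:**
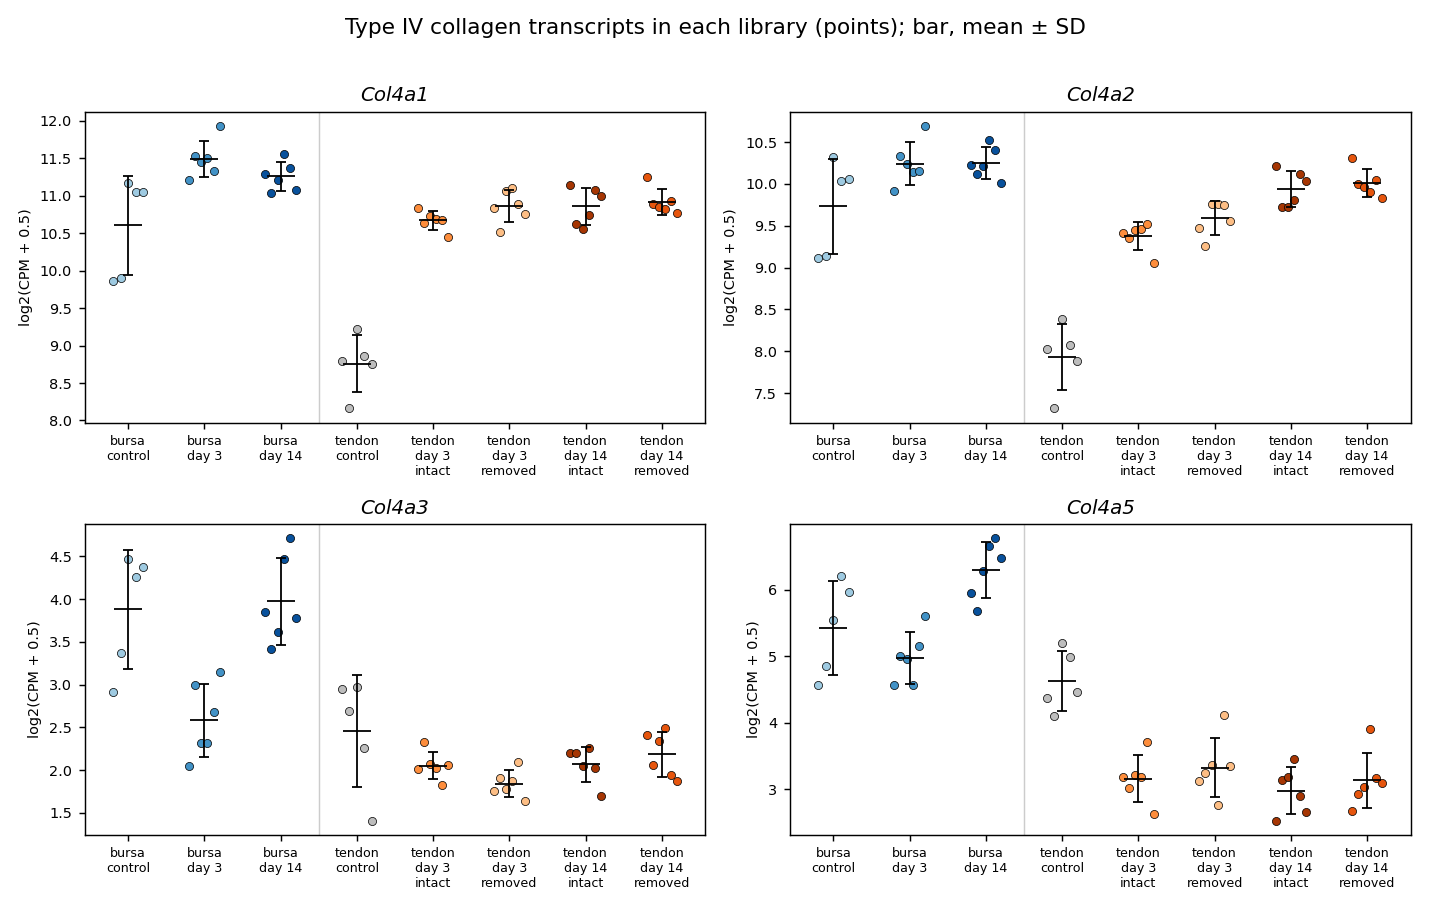
Log2(CPM + 0.5) of 4 type IV chains in each of the 46 libraries (points), by group, with the group mean and SD (bars). Col4a1 and Col4a2 sit higher in every cut tendon than in the 5 control tendons, while Col4a5 sits lower at day 14 than in control tendon, and in bursa Col4a3 and Col4a5 are lower at day 3 than at day 14.

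Types XV and XVIII, which sit between the basement membrane and the fibres around it and whose ends are released as endostatin-like fragments, rose in both tissues. Col18a1 stood at 69.44, 57.49, 144.2, 108.6 and 84.95 CPM in control tendon and at a lowest, median and highest of 408.4, 535.2 and 577.3 CPM at day 3 and 459.7, 580.7 and 652.8 CPM at day 14 with the bursa intact. All cut tendons lay above all control tendons, with log2 fold changes of 2.42 ± 0.17 and 2.58 ± 0.18. In bursa it rose at day 3 (1.43 ± 0.26, adjusted p = 0.000329, and 1.05, adjusted p = 0.000256, without control bursae 1 and 2), with 516.3 to 851.1 CPM against 120.3 to 345.6 CPM. Its day 14 rise in bursa (0.77, adjusted p = 0.0465) was lost without control bursae 1 and 2 (0.38, adjusted p = 0.154) and without any single one of 7 of the 11 libraries (both of these controls and day 14 bursae 1 to 5, adjusted p up to 0.107). Col15a1 changed less: 0.44 and 0.37 in tendon at days 3 and 14 with the bursa intact, and 0.83 ± 0.18 in bursa at day 3 (adjusted p = 0.00129). Its tendon ranges overlapped those of control, and the day 14 call was lost without control tendon 4 or day 14 tendon 1 (adjusted p up to 0.0634).

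Col7a1, the anchoring fibril of epithelia, rose in cut tendon from 2.86 ± 0.91 CPM (SD, n = 5) to 7.19 ± 2.11 CPM at day 3 and 9.47 ± 1.03 CPM at day 14 (n = 6 each, log2 fold changes 1.27 ± 0.18 and 1.69 ± 0.18). In bursa it was 10.3 ± 3.62, 11.5 ± 1.31 and 7.16 ± 1.24 CPM in control, day 3 and day 14, and it fell between the 2 days (-0.72 ± 0.18, adjusted p = 0.00852). Of the 5 keratinocyte markers only Krt1 was counted, with a mean under 1 CPM in every group. Of the 17 listed genes that build basement membranes beside collagen, 13 were tested, and in tendon with the bursa intact 7 rose and 3 fell at day 3, and 7 rose and 4 fell at day 14, beside 65.5% and 66.2% of all features called. The largest rises at day 14 were those of Pxdn, the peroxidase that crosslinks type IV collagen (2.41), Nid1, a linker of laminin and type IV (2.39), Sparc, a collagen-binding protein (2.22), and the laminin chain Lamb1 (2.18). In bursa at day 3, 3 of the 13 rose and 3 fell, a share near the 46.2% of all features.

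Col6a1 and Col6a2, 2 of the 3 chains of the type VI filaments around tendon cells, rose in both tissues and moved together. Control tendon held 638.8, 660.2, 690.9, 504.6 and 683.2 CPM of Col6a1. The lowest, median and highest values with the bursa intact were 961.8, 1325 and 1651 CPM at day 3 and 2544, 3000 and 3814 CPM at day 14. Each time point lay wholly above the one before it. The log2 fold changes over control were 1.03 ± 0.15 (adjusted p = 1.16e-06) and 2.24 ± 0.16 (adjusted p = 3.25e-12), and those of Col6a2 were 1.22 ± 0.15 and 2.29 ± 0.15. In bursa Col6a1 stood at 201.5, 192.4, 685.7, 858 and 677.2 CPM in control, at 1104 to 1596 CPM at day 3 and at 1083 to 1748 CPM at day 14, so both later groups lay above all controls. Its log2 fold changes there were 1.46 ± 0.33 and 1.54 ± 0.33, and 0.98 and 1.04 (adjusted p = 0.000209 and 0.00122) without control bursae 1 and 2. The log2 ratio of Col6a1 to Col6a2 was -0.30 ± 0.09 (SD) over the 46 libraries, and their r was 0.996 (0.993 for deviations from group means).

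Col6a6, a chain that can take the place of Col6a3 in type VI filaments, had the widest swing of the 29 collagens tested in tendon between the 2 days. It stood at 7.715, 9.223, 16.12, 9.241 and 7.042 CPM in control tendon. With the bursa intact it was 1.106, 0.6462, 1.43, 4.316, 3.402 and 0.4667 CPM at day 3 and 66.88, 75.86, 53.35, 69.97, 51.88 and 46.47 CPM at day 14. All 6 libraries of day 3 lay below, and all 6 of day 14 above, every control. It fell by 2.43 on the log2 scale at day 3 (SE 0.36, adjusted p = 1.73e-06), rose by 2.58 over control at day 14 (SE 0.34, adjusted p = 2.1e-07), and the 2 days differed by 5.01 ± 0.36. With the bursa removed the same 3 values were -3.13, 2.32 and 5.45. The bursa had the same order at a higher level: 56.1 ± 30 CPM in control, 31.5 ± 12.1 at day 3 and 170 ± 50.1 at day 14. There the rise over control at day 14 passed (1.59 ± 0.37, adjusted p = 0.00976, and 1.14, adjusted p = 0.0362, without control bursae 1 and 2). The rise from day 3 to day 14 passed too (2.39 ± 0.36, adjusted p = 0.000255). The fall at day 3 passed only without control bursae 1 and 2 (-0.80, adjusted p = 0.0823, and -1.24, adjusted p = 0.00497).

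Col6a5, a chain of the same kind as Col6a6, was a bursa transcript in these libraries. It stood at 20.82, 16.73, 41.94, 23.01 and 32.33 CPM in control bursa and at 0, 0.2459, 1.13, 0 and 0.1136 CPM in control tendon. The difference was 6.39 ± 0.56 on the log2 scale (adjusted p = 1.96e-12), and no bursa library of any group (lowest 16.73 CPM) came down to the highest of the 29 tendon libraries (4.673 CPM). It rose in bursa at day 3 (1.60 ± 0.39, adjusted p = 0.00321), where 6 libraries spread from 23.58 to 136.6 CPM. It also rose in tendon, from 20 counts in 5 control libraries to means of 1.13 and 2.12 CPM at days 3 and 14 with the bursa intact.

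Col6a4, another chain of that kind, did not exceed 1.363 CPM in any library. Its group means were 0.0579 CPM in control bursa and 0.738 CPM at day 3, and 0.0549 and 0.653 CPM in tendon, and the day 3 libraries of both tissues lay above all their controls. Col28a1, a short beaded collagen known from nerve, fell instead. It went from 22.3 ± 12.9 CPM in control tendon to 4.29 ± 2.38 CPM at day 3 and 5.09 ± 1.69 CPM at day 14 with the bursa intact (-2.42 ± 0.39 and -2.16 ± 0.39), and all cut tendons lay below all control tendons. In bursa it fell at day 3 (-1.72 ± 0.39, adjusted p = 0.00221), from 22.9 ± 13.8 to 6.8 ± 2.57 CPM. Its day 14 difference there passed only without control bursae 1 and 2 (-0.55, adjusted p = 0.329, and -1.06, adjusted p = 0.0223). The 7 counted Schwann cell markers summed to 464.2 to 717.7 CPM in control tendon. With the bursa intact their sum was 235.5 to 301 CPM at day 3 and 266.7 to 354.5 CPM at day 14. At day 3, 6 of the 7 fell and 1 rose (34.5% of all features down and 31% up). At day 14, 5 fell and 0 rose (33% and 33.1%). Sox10 and Cdh19 were under 1 CPM on average at both days. The part of Schwann cells in the Col28a1 result was not tested.

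**Figure D3:**
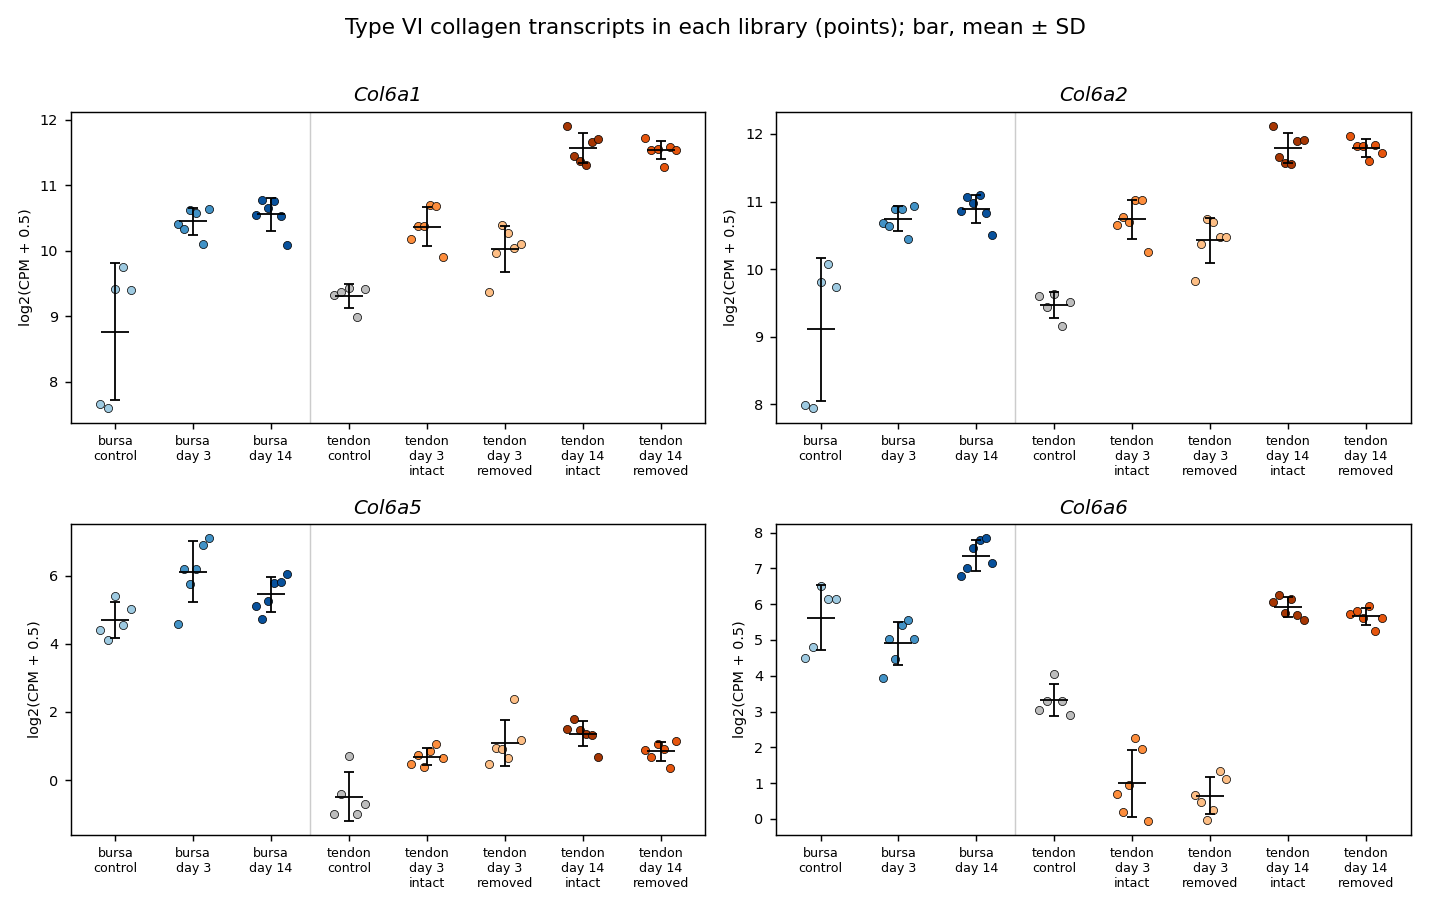
Log2(CPM + 0.5) of 4 type VI chains in each of the 46 libraries (points), by group, with the group mean and SD (bars). Col6a1 and Col6a2 climb together, Col6a5 is high in bursa and near 0 CPM in tendon, and Col6a6 drops at day 3 and is above control at day 14 in tendon.

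Of 10 listed partners of type VI collagen and the FACITs, 8 were tested, and with the bursa intact 3 rose and 3 fell at day 3 and 4 rose and 1 fell at day 14, near the 65.5% and 66.2% called over all features. At day 14 the rises were those of the keratan sulphate proteoglycan Lum (3.99), the matrilin Matn2, which binds to such filaments (2.75), the collagen VI receptor Antxr1 (2.32) and Bgn (1.55), and the fall was that of Dcn (-0.96). Of 8 listed collagen receptors 7 were tested, with 2 up and 5 down at day 3 and 2 up and 3 down at day 14, on the same background. Itga11, a collagen-binding integrin chain of fibroblasts, rose (1.49 and 3.53), and Itga10, its counterpart in cartilage and tendon cells, fell (-4.60 and -2.53). In bursa at day 3 the partners counted 3 up and 2 down of 8, and the receptors 1 up and 2 down of 7, with 46.2% of all features called.

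Among the FACITs, Col12a1 had the largest rise of the 29 collagens in tendon at day 14. It links the surface of type I fibres to the surrounding matrix. Control tendons held 145.8, 169.6, 213.8, 241.1 and 339.1 CPM. The lowest, median and highest values were 1436, 2027 and 2497 CPM at day 3 and 4143, 5811 and 7162 CPM at day 14 with the bursa intact. The 3 ranges did not touch, and the log2 fold changes over control were 3.12 ± 0.24 (adjusted p = 8.81e-12) and 4.68 ± 0.25 (adjusted p = 2.63e-14). In bursa the levels were 56.58, 21.1, 90.52, 190.2 and 120.1 CPM in control, 489.9 to 1842 CPM at day 3 and 116.3 to 1227 CPM at day 14. The bursa rose at day 3 (3.49 ± 0.64, adjusted p = 0.000377, and 3.03, adjusted p = 0.00266, without control bursae 1 and 2). It also rose at day 14 (2.22 ± 0.60, adjusted p = 0.0201), but not without control bursae 1 and 2 (1.74, adjusted p = 0.0857). The days did not pass against each other (-1.27 ± 0.55, adjusted p = 0.109).

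Col16a1, a FACIT of fibril and fibrillin networks, followed Col12a1. Control tendon held 91.74, 114.1, 100, 110.2 and 120.4 CPM, and the medians with the bursa intact were 361.7 CPM at day 3 (288.4 to 566.7) and 1077 CPM at day 14 (833.1 to 1205). Again no range touched another, with log2 fold changes of 1.79 ± 0.19 and 3.25 ± 0.20. In bursa it stood at 18.1, 15.56, 66.83, 181.3 and 69.95 CPM in control and rose by 2.52 ± 0.52 (adjusted p = 0.00103) at day 3 and by 1.82 ± 0.51 (adjusted p = 0.0232) at day 14. Without control bursae 1 and 2 these rises were 1.94 (adjusted p = 0.000946) and 1.23 (adjusted p = 0.0401). The r of Col12a1 and Col16a1 over the 46 libraries was 0.949, and 0.821 for deviations from group means. This was not particular to Col12a1, as the r of Col16a1 with Col6a1 was 0.954, and 0.872 for deviations. Beside both genes, the 5 counted of 6 activated fibroblast markers summed to a median of 823 CPM in control tendon, 9720 at day 3 and 31790 at day 14 with the bursa intact, and of 1787, 5496 and 4374 CPM in bursa, and their part was not tested.

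Col14a1, the FACIT of mature fibre surfaces, was late. Control tendon held 653.7, 627.4, 531.5, 425.6 and 357.1 CPM. At day 3 the values were 268.3 to 619.2 CPM with the bursa intact, which did not pass (-0.40 ± 0.24, adjusted p = 0.139), and 118.4 to 414 CPM with it removed, which did (-0.77 ± 0.24, adjusted p = 0.00636). Whether the 2 responses differ is the direct comparison of the groups, which did not pass (-0.37 ± 0.23). At day 14 it was above control in both, at 693.2 to 1311 CPM (0.85 ± 0.24, adjusted p = 0.00319) and 719.6 to 979 CPM (0.66 ± 0.24, adjusted p = 0.0185), the second call being lost without control tendon 5 (adjusted p = 0.055). In bursa no comparison of Col14a1 passed.

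Col22a1, the FACIT of the junction of muscle and tendon, fell in cut tendon. It stood at 53.17, 46.48, 94.54, 101 and 87.23 CPM in control tendon and at 8.067 to 18.43 CPM at day 3 and 5.485 to 14.81 CPM at day 14 with the bursa intact. No cut tendon reached the control range, and it fell by 2.54 ± 0.35 (adjusted p = 4.97e-07) and 2.72 ± 0.36 (adjusted p = 2.06e-07) on the log2 scale. It was 2.53 ± 1.03 CPM in control bursa and 0.9872 to 8.692 CPM in bursa at day 14. Muscle transcripts moved the same way, with 8 of 13 listed markers counted. All 8 fell at day 3 and at day 14 with the bursa intact (34.5% and 33% of all features down). Their sum was 36880 to 60460 CPM in control tendon, 2358 to 7319 CPM at day 3 and 1988 to 8490 CPM at day 14. Acta1 was the highest of the 8, at a mean of 18360 CPM in control tendon. The day 3 tendon with the highest Col22a1 after removal (40.49 CPM) had the highest muscle sum of its group (23530 CPM, against 2572 to 7975 CPM in the other 5). The part of muscle in the Col22a1 result was not tested.

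**Figure D4:**
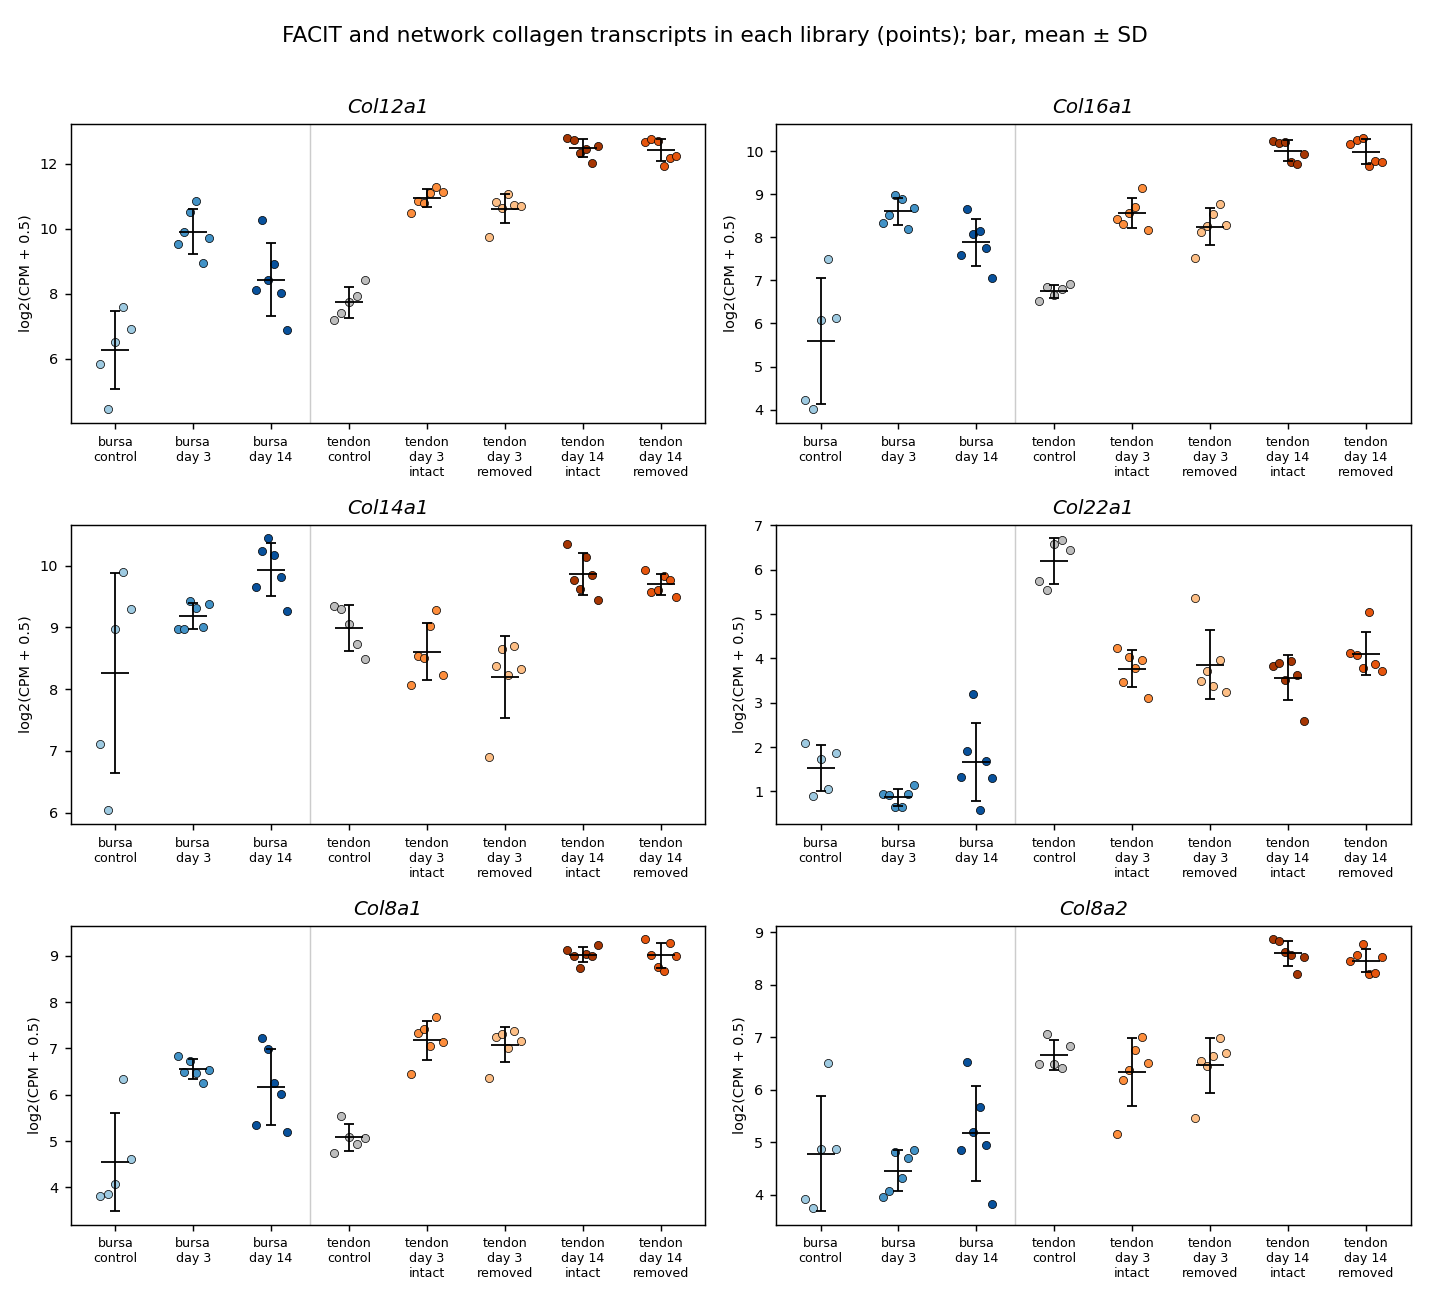
Log2(CPM + 0.5) of 4 FACIT and 2 network collagens in each of the 46 libraries (points), by group, with the group mean and SD (bars). Col12a1, Col16a1 and Col8a1 step up at day 3 and again at day 14 in tendon, Col8a2 and Col14a1 are above control only at day 14, and Col22a1 is low in every cut tendon.

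The other FACITs were scarce. Col9a1 and Col9a3, chains of the type IX collagen of cartilage, had means of 1.68 and 2.29 CPM in control tendon. Both fell at day 3 with the bursa intact (-2.90 and -3.17). With the bursa removed, the day 3 fall of Col9a1 (-1.75, adjusted p = 0.0399) was lost in 7 of 11 runs with 1 library left out (adjusted p up to 0.0882). Of 7 cartilage markers 5 were counted and 3 tested. With the bursa intact 1 rose and 2 fell at day 3 (31% of all features up and 34.5% down). The sum of the 5 was 35.03 to 488.1 CPM in control tendon, with Col2a1 the highest on average. At day 3 with the bursa intact it was 6.162 to 28.65 CPM, with Sox9 the highest. Control tendon 2 held the highest of these sums and the highest Col9a3 (6.579 CPM), and without it the fall of Col9a3 did not pass with the bursa removed at day 3, nor at day 14 in either group (adjusted p = 0.129 to 0.29). The day 14 calls were also lost without day 14 tendon 3 or 6 with the bursa intact, or without day 14 tendon 2 with it removed. In bursa, Col9a3 fell at day 3 (-2.08, adjusted p = 0.013), but not without control bursa 4 (-0.76, adjusted p = 0.153), which held 11.1 CPM. Col19a1 fell in bursa at day 3 (-1.14 ± 0.32, adjusted p = 0.0091), with means of 2.55 and 1.12 CPM. Col20a1 rose in bursa at day 14 (1.07 ± 0.30, adjusted p = 0.0247), from 1.98 to 4.19 CPM, which was lost without day 14 bursa 1 or 4 (adjusted p up to 0.0545). Col9a2 had means of 0.0334 to 1.06 CPM and was not tested.

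The 2 chains of type VIII, a network collagen of vessel walls and the eye, separated in time. Control tendon held 26.2, 46.3, 33.6, 30.25 and 32.94 CPM of Col8a1 and 89.99, 133.8, 89.49, 84.74 and 113.5 CPM of Col8a2. With the bursa intact, Col8a1 had a lowest, median and highest of 86.43, 150.7 and 203.5 CPM at day 3 and 428, 520 and 598 CPM at day 14. Col8a2 stood at 35.08, 86.46 and 127.8 CPM at day 3 and at 295.1, 385.9 and 466.6 CPM at day 14. Col8a1 thus rose at both days (2.08 ± 0.19 and 3.92 ± 0.21), while 3 of 6 day 3 libraries of Col8a2 lay within the control range and 3 below it (-0.30 ± 0.23, adjusted p = 0.258) and rose at day 14 (1.91 ± 0.24, adjusted p = 1.2e-07). The log2 ratio of Col8a1 to Col8a2 went from -1.58 ± 0.17 (SD) in control tendon to 0.84 ± 0.37 at day 3 and 0.42 ± 0.28 at day 14, and in bursa from -0.24 ± 0.34 to 2.10 ± 0.50 and 0.99 ± 0.51. In bursa Col8a1 rose at day 3 (1.69 ± 0.48, adjusted p = 0.00923), but not without control bursae 1 and 2 (1.27, adjusted p = 0.0633), and Col8a2 did not pass at either day.

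Col10a1, the network collagen of hypertrophic cartilage, stood at 5.118, 27.18, 0.452, 0.959 and 0.795 CPM in control tendon, so control tendon 2 set most of the mean. After tenotomy there was 1 count in the 6 day 3 libraries with the bursa intact and 15 with it removed, and the day 14 means were 0.145 and 0.878 CPM. The day 14 libraries with the bursa removed (0.1287 to 2.211 CPM) overlapped the control tendons. The fall at day 14 with the bursa removed did not pass without control tendon 2 (-1.07, adjusted p = 0.234).

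Col13a1, a transmembrane collagen of neuromuscular junctions and cell adhesions, fell in every comparison with control. It stood at 15.2, 22.69, 19.89, 20.14 and 25.78 CPM in control tendon and at 2.686 to 5.495 CPM at day 3 and 3.639 to 6.577 CPM at day 14 with the bursa intact. The ranges did not overlap, with log2 fold changes of -2.43 ± 0.20 (adjusted p = 5.53e-11) and -2.06 ± 0.20 (adjusted p = 1.16e-09). In bursa it went from 5.2 ± 1.69 CPM to 1.53 ± 0.29 and 1.83 ± 0.99 CPM, and fell at both days (-1.73 ± 0.33 and -1.52 ± 0.33, adjusted p = 0.000589 and 0.00629). The muscle sums above moved with it in tendon. In bursa 1 of the 8 muscle markers fell at day 3 (24.2% of all features down) and 0 at day 14 (7.2%). The median log2 fold changes of the 8 were -1.37 and -0.10, and the part of muscle was not tested. Col17a1, the hemidesmosome collagen of epithelia, changed little, with 9.28 ± 3.87 CPM in control tendon and 14.3 ± 2.37 CPM at day 3 with the bursa intact (0.55 ± 0.23, adjusted p = 0.0337), a call lost without control tendon 3, 4 or 5 or day 3 tendon 5 (adjusted p up to 0.0831). Col23a1 had group means under 0.5 CPM and was not tested, and Col25a1 and Col26a1 had no adjusted p under 0.05 in the authors' deposited tables.

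Among the fibre-type chains that the choice of genes kept, Col5a3, the minor type V chain, had the largest rise of the 29 collagens in tendon at day 3 with the bursa intact. It stood at 74.17, 39.9, 94.99, 104.4 and 75.64 CPM in control tendon. The lowest, median and highest values with the bursa intact were 1067, 1334 and 1399 CPM at day 3 and 700, 980.8 and 1372 CPM at day 14. The log2 fold changes were 4.01 ± 0.26 (adjusted p = 5.48e-13) and 3.65 ± 0.26 (adjusted p = 3.26e-12), with no overlap with control. In bursa, control libraries held 93.22, 94.13, 429.5, 425.5 and 426.5 CPM, and the day 3 rise was 1.33 ± 0.42 (adjusted p = 0.0162), or 0.80 (adjusted p = 0.0375) without the first 2. Col27a1, a thin-fibre collagen of cartilage and tendon entheses, stood at 15.13, 15.86, 13.86, 10.72 and 11.7 CPM in control tendon and rose to 33.94 to 66.93 CPM at day 3 and 47.24 to 84.71 CPM at day 14 (1.81 ± 0.20 and 2.38 ± 0.20). In bursa it rose at day 3 (1.06 ± 0.28, adjusted p = 0.00669), but not without control bursae 1 and 2 (0.83, adjusted p = 0.0516).

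Col24a1, a fibre chain linked to bone formation, first fell and then rose in tendon. It was 10.8 ± 2.25 CPM in control, 5.98 ± 1.39 CPM at day 3 (-0.90 ± 0.19, adjusted p = 0.000201) and 41.4 ± 6.39 CPM at day 14 (1.91 ± 0.19, adjusted p = 2.44e-09) with the bursa intact. With the bursa removed the log2 fold changes were -0.87 and 1.90. In bursa it was near 1 CPM in control (0.6807 to 1.401), and its rises at day 3 (1.26, adjusted p = 0.0321) and day 14 (1.49, adjusted p = 0.0345) did not pass without control bursae 1 and 2 (adjusted p = 0.128 and 0.136). Leaving out 1 library at a time, these 2 calls were lost in 6 and 5 of 11 runs (adjusted p up to 0.0706 and 0.0825), control bursae 1, 2 and 5 among them. Col11a2 was lower at day 3 with the bursa intact by 2.31 on the log2 scale (adjusted p = 1.51e-06) and within 0.07 of control at day 14 (adjusted p = 0.864) in the authors' deposited table. Beside Col24a1, 3 of 5 bone-forming cell markers were counted. Their sum was 10.92 to 22.07 CPM in control tendon, 5.467 to 8.321 at day 3 and 30.81 to 50.95 at day 14 (bursa intact). The 3 did not move together: 1 rose and 2 fell at day 3 (31% of all features up and 34.5% down). At day 14, 2 rose and 1 fell (33.1% and 33%). Alpl was the highest at day 14 with a mean of 33.76 CPM, and Ibsp was under 1 CPM at both days. The relation of these markers to Col24a1 was not tested.

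The members fell into several courses in tendon. Between day 3 and day 14 with the bursa intact, 12 of 29 collagens rose and 2 fell (42.8% of all features called, 22.4% up and 20.4% down), and with the bursa removed 14 rose and 2 fell (45.1%, 23.4% up and 21.8% down). The 2 days did not overlap for 11 higher and 0 lower with the bursa intact (12.7% and 13.9% of all features) and for 12 and 2 with it removed (13.5% and 11%). Col12a1, Col16a1, Col8a1, Col6a1 and Col6a2 rose over control at day 3 and rose again by day 14. Col4a1, Col18a1 and Col5a3 reached their higher level by day 3 and did not pass between the days (0.23, 0.16 and -0.36). Col6a6 and Col24a1 fell at day 3 and then rose above control, by 5.01 and 2.81 between the days, while Col8a2 rose by 2.21 in that interval only.

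Control bursa and control tendon differed in most of these collagens before any injury. In bursa 12 of 30 were higher and 7 lower (51.3% of 17254 features called, 29.2% higher and 22% lower). All control bursae lay above all control tendons for 6 and below them for 3 (14.7% and 12.3% of all features). Of 8 tested basement membrane collagens 7 were higher in bursa and none was lower, with 29.2% of all features higher. The 7 were Col4a1 (1.93 ± 0.20), Col4a2 (1.84 ± 0.18), Col7a1 (1.84 ± 0.20), Col4a6 (1.71), Col4a3 (1.52), Col18a1 (1.36) and Col4a5 (0.89 ± 0.28), and Col15a1 did not pass (-0.05). Of the 13 tested basement membrane partners 10 were higher in bursa, among them Pxdn (2.03), Lamb1 (1.95), Lamb3 (1.90) and Nid1 (1.77). Endothelial markers (7 of 8 counted) summed to 899 to 1225 CPM in control bursa and 438.3 to 990.3 CPM in control tendon, beside the adipocyte sums given above, and their part was not tested. Also higher in bursa were Col6a5, Col6a6 (2.51 ± 0.39), Col19a1 (2.96 ± 0.61), Col5a3 (1.92 ± 0.34) and Col20a1 (0.90). Lower in bursa were Col22a1 (-4.91 ± 0.46), Col10a1, Col24a1 (-3.37 ± 0.36), Col13a1 (-1.98 ± 0.27), Col8a2 (-1.53 ± 0.38), Col12a1 (-1.21 ± 0.42) and Col17a1 (-1.06 ± 0.35). The calls for Col12a1 and Col17a1 were lost without control bursae 1 and 2 (adjusted p = 0.118 and 0.0833), that for Col12a1 also without control tendon 5 (adjusted p = 0.0535), and that for Col17a1 also without control tendon 2 (adjusted p = 0.0603). The difference in Col10a1 was lost without control tendon 2 (adjusted p = 0.226). In a fit of these 2 groups alone, which has fewer libraries, the calls for Col4a5 (adjusted p = 0.0683), Col20a1 (0.0891), Col12a1 (0.0673) and Col17a1 (0.149) were lost. That fit called 10 higher and 4 lower, and a further collagen of the lower calls was not tested in it.

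The response to injury was then compared between the tissues, as the difference between the bursa and the tendon log2 fold changes (bursa intact). At day 3, it passed for 9 of 30 collagens, 3 in the direction of bursa and 6 in that of tendon (24.2% of all features called, 9.75% and 14.4%). The rise in tendon exceeded that in bursa for Col5a3 (-2.77 ± 0.45), Col7a1 (-1.16 ± 0.26), Col4a1 (-1.09 ± 0.26), Col18a1 (-1.08 ± 0.29) and Col4a2 (-0.96 ± 0.24). Col24a1 differed the other way (2.05 ± 0.46, and 1.98, adjusted p = 0.00265, without control bursae 1 and 2). It fell in tendon, and its rise in bursa did not pass without those 2 libraries (adjusted p = 0.128). Col6a6 also differed towards bursa (1.54 ± 0.53, adjusted p = 0.0293), a call that was lost without control bursae 1 and 2 (1.18, adjusted p = 0.076). Col27a1 and Col4a3 passed, with negative differences, only without control bursae 1 and 2 (-0.99 and -1.17, adjusted p = 0.0243 and 0.00874). For Col12a1 the day 3 responses were close, with a difference of 0.29 ± 0.56 (adjusted p = 0.767). At day 14 the difference passed for 16 of 30, 5 towards bursa and 11 towards tendon (34.7% called, 15.4% and 19.3%). The 11 were led by Col5a3 (-2.93 ± 0.45), Col8a1 (-2.50 ± 0.47), Col12a1 (-2.48 ± 0.57), Col7a1 (-2.24 ± 0.26) and Col27a1 (-2.05 ± 0.33). Towards bursa were Col22a1 (3.05 ± 0.56) and Col4a5 (2.53 ± 0.39), which both fell in tendon, with Col4a6, Col28a1 and Col20a1. Without control bursae 1 and 2 the calls for Col4a6 and Col28a1 were lost (adjusted p = 0.0954 and 0.0856), and without control bursa 4 those for Col16a1 and Col8a2 (adjusted p = 0.161 and 0.0887). For Col6a1 and Col6a2 the difference at day 14 did not pass (-0.72 and -0.80, adjusted p = 0.0872 and 0.0525) unless control bursae 1 and 2 were left out (-1.17 and -1.25, adjusted p = 2.62e-05 and 3.62e-06). The same held for Col6a6 (-1.02, adjusted p = 0.108, and -1.41, adjusted p = 0.0138).

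Whether the bursa bears on the collagens of the cut tendon was asked by comparing removed with intact. At day 3, 0 of 29 collagens and 0 of 16411 features passed (0% called), and the same held at day 14 (0%). No collagen had groups without overlap at either day, in either direction (0.0731% of all features higher and 0.207% lower at day 3, 0.0427% and 0.0366% at day 14). DESeq2 called 0 of the collagens at either day, and 8 and 1 features over the whole table. At an unadjusted p under 0.05 stood 4 of the 29 collagens at day 3 (7.83% of all features) and 1 at day 14 (1.26%). These were Col6a1 (-0.33, 95% interval -0.62 to -0.04), Col6a2 (-0.29), Col5a3 (-0.46) and Col10a1 at day 3, and Col10a1 at day 14, the smallest adjusted p being 0.619. The 95% interval of the difference lay within 1 of 0 on the log2 scale for 23 of 29 collagens at day 3 and 21 at day 14. For Col12a1 it was -0.70 to 0.12 at day 3 and -0.48 to 0.35 at day 14, and for Col6a6 -1.56 to 0.15 and -0.85 to 0.33. The change in the removal difference from day 3 to day 14 passed for 0 of 29 (0% of all features called), with 1 of 29 collagens and 1.54% of all features at an unadjusted p under 0.05 and 0 by DESeq2. A p that misses the threshold does not show that the groups were alike, and the intervals of the scarce genes are wide.

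**Figure D5:**
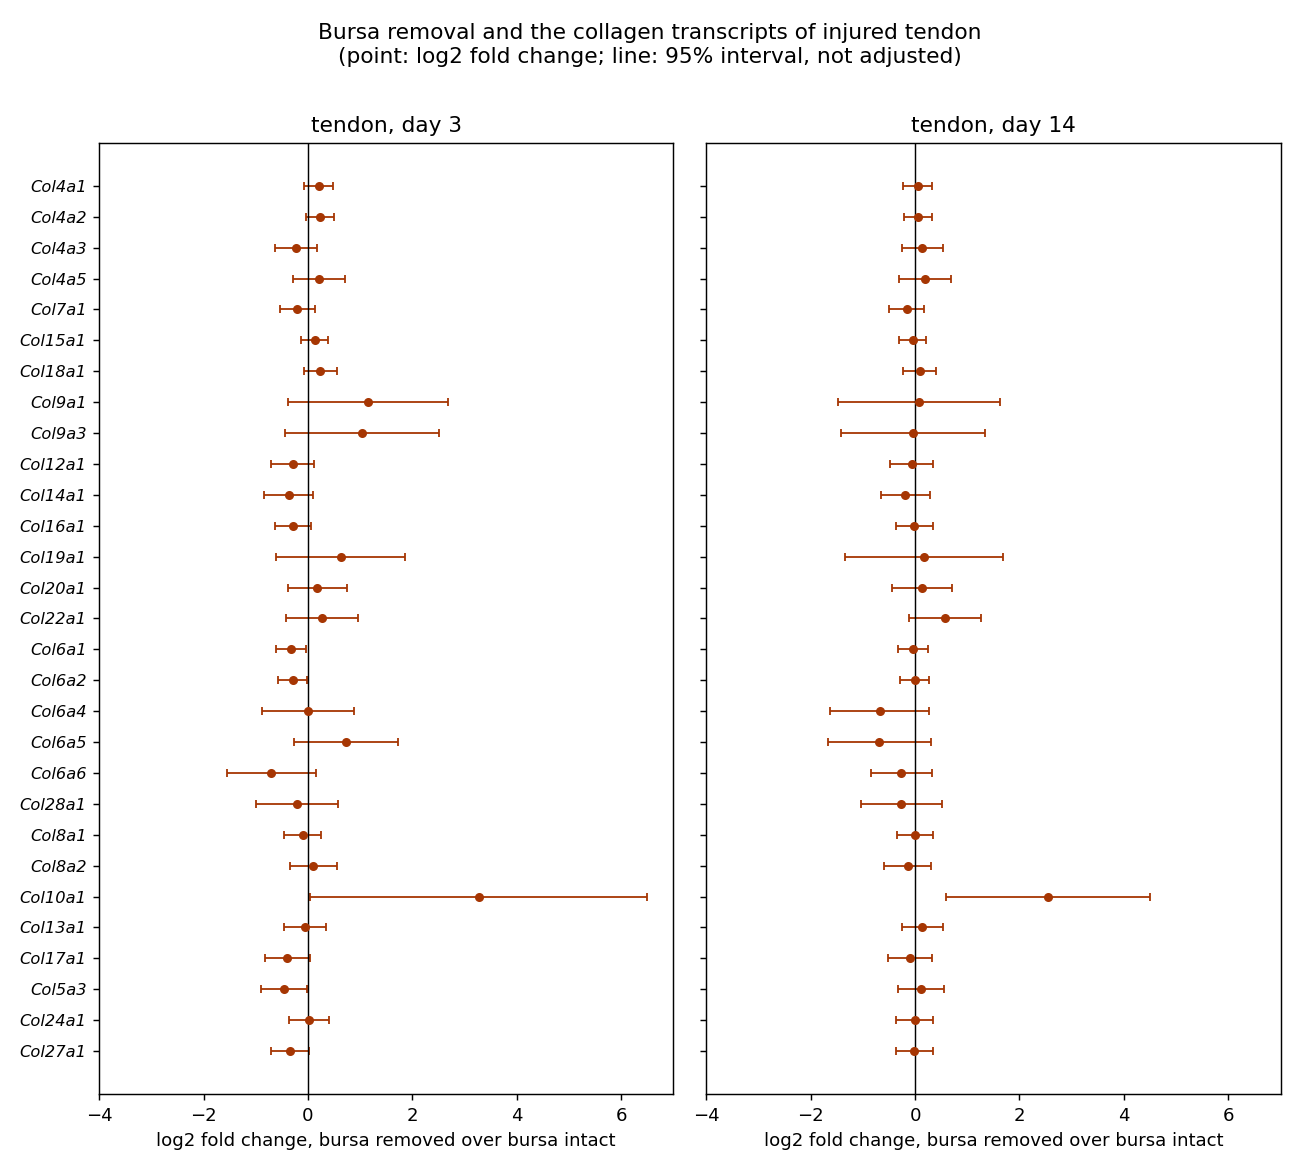
Log2 fold change of each of 29 collagens in cut tendon, bursa removed over bursa intact, with its 95% interval (lines, not adjusted for the number of genes), at day 3 (left) and day 14 (right). Points of the abundant chains lie near 0 with short lines, and Col10a1, at 1 to 16 counts per group with the bursa intact, has the longest.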

How the data were processed

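Polyadenylated RNA of 46 rat libraries was sequenced, per the labels' protocols. The authors' deposited table holds estimated counts of kallisto 0.44.0 for 31715 transcripts without gene names, as whole numbers, and 11 deposited DESeq2 tables (its version is not stated) hold log2 fold changes with standard errors, Wald statistics (a score), mean normalized counts (a signal) and adjusted p-values of 23747 symbols. Base calls came from bcl2fastq 2.19, per the submitters' processing notes; no source used here names a build or an annotation. Symbols were assigned to transcripts by finding the 1 or 2 transcripts whose counts give the deposited mean in all 11 tables. This matched 13857 symbols and 88.48% of all counts. Of targets shifted on purpose, 0.03485% of 11479 were matched by 1 transcript, and 0.1262% of 2378 by 2 transcripts. Recomputed and deposited log2 fold changes differed by a median of 0.004398. The 15480 transcripts without a symbol stayed as features of their own, subject to the filter on low counts. A row of the deposited gene tables without a symbol was left out.

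Counts were rounded and tested with edgeR 4.0.16 (quasi-likelihood test, TMM scaling, filterByExpr) in 3 fits: 17 bursa libraries (16344 features), 29 tendon libraries (16411) and all 46 (17254). Adjusted p-values are Benjamini-Hochberg over all features of a fit, with a threshold of 0.05. Levels are CPM on TMM library sizes over all 46 libraries. Alternatives were DESeq2 1.42.0, RLE scaling, no filter, each library left out, control bursae 1 and 2 left out, and a block for the replicate number. Same-numbered day 14 tendons with removed and intact bursa deviated from their group means in the same direction (r = 0.17 to 0.576 in the 6 pairs). Removed tendon 2, however, correlated best with intact tendon 1. Same-numbered day 3 bursa and day 3 tendon, bursa intact, had r = 0.111 to 0.27, and bursae 5 and 6 correlated best with tendons 1 and 2. These values do not establish which libraries belong together, and no blocked fit of the difference in response was run. Each of the other pairs of groups held a same-numbered pair with a negative r. The scripts were tested on simulated data. Every collagen of the rule may be named. Full statistics went mainly to those of at least 10 CPM in some group, and also to scarcer ones such as Col19a1 and Col20a1. Values of every library of a group were given for some members of a family, not always the highest. At most 4 genes past the threshold were named per partner list and comparison, apart from Dcn, named beside 4 rises at day 14. The members and lists were chosen with earlier results of these data known. Sequences are from RefSeq (GRCr8).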

Additional observations from a re-analysis of the deposited data

Results flagged for a closer look

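A library was set apart where the gap to its nearest neighbour took up most of the range of its group, a criterion that chance meets in about 1 of 20 groups. Of 136 gene and group sets checked, 14 met it (10.3%). The day 3 tendon 1 with the bursa removed accounted for 6 of them: it was low for Col12a1 (863.3 CPM, nearest 1590), Col14a1 (118.4, nearest 298.8), Col17a1 (4.4, nearest 10.82), Col8a1 (81.54, nearest 128.3) and Col8a2 (43.93, nearest 86.66), and high for Col22a1 (40.49, nearest 15.07). The muscle marker sum of that library was 23530 CPM against 2572 to 7975 CPM in the other 5, and its part in these values was not tested. Day 3 tendon 2 with the bursa removed was low for Col18a1 (437 CPM, nearest 576.4). Day 3 tendon 6 with the bursa intact was low for Col4a2 (532.6, nearest 655.5) and Col5a3 (1067, nearest 1310). At day 14, Col22a1 was low in tendon 6 with the bursa intact (5.485, nearest 10.9) and high in tendon 4 with it removed (32.37, nearest 16.85), and Col4a1 was high in tendon 1 with the bursa removed (2432, nearest 1958). Col6a1 was low in day 14 bursa 6 (1083, nearest 1482) and in control tendon 4 (504.6, nearest 638.8).

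The log2 response to injury differed between bursa and tendon with the bursa intact, by the test of the difference itself, for 9 collagens at day 3. The values, bursa minus tendon, were -2.77 for Col5a3, -2.26 for Col19a1, -1.16 for Col7a1, -1.09 for Col4a1, -1.08 for Col18a1, -0.96 for Col4a2, 1.54 for Col6a6, 1.57 for Col22a1 and 2.05 for Col24a1. Leaving out 1 library at a time ended the call for Col22a1 in 13 of 22 runs (adjusted p up to 0.0773). For Col6a6 it ended in 5 runs (up to 0.0762), and also without control bursae 1 and 2 (1.18, adjusted p = 0.076). For Col19a1 it ended in 4 (up to 0.0638). Control bursa 4 was 1 of the libraries whose absence ended the calls for Col22a1 and Col19a1.

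At day 14 the difference passed for 16. It was -2.93 for Col5a3, -2.50 for Col8a1, -2.48 for Col12a1, -2.24 for Col7a1, -2.05 for Col27a1, -1.96 for Col6a5, -1.83 for Col18a1, -1.69 for Col8a2, -1.53 for Col4a1, -1.53 for Col4a2 and -1.45 for Col16a1. In the other direction it was 1.29 for Col20a1, 1.58 for Col28a1, 1.95 for Col4a6, 2.53 for Col4a5 and 3.05 for Col22a1. Single libraries ended the call for Col4a6 in 12 of 22 runs (adjusted p up to 0.0959), for Col6a5 in 5 (up to 0.0751) and for Col28a1 without control bursa 2 or control tendon 3 (up to 0.0916).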

How the results depend on the processing

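The total counts of collagens called stayed within 1.5 times their reported value under DESeq2, RLE scaling, no filter on low counts and, where bursa controls entered, without control bursae 1 and 2, and no collagen changed direction past the threshold in any of these or with 1 library left out. With 1 library left out, the counts ranged from 17 to 20 for bursa at day 3, from 8 to 15 at day 14 and from 4 to 7 between the days. In tendon they ranged from 24 to 25 and 25 to 27 at days 3 and 14 with the bursa intact, from 23 to 26 and 23 to 24 with it removed, and from 12 to 14 and 14 to 17 between the days. They ranged from 17 to 22 for control bursa against control tendon, and from 7 to 11 and 14 to 18 for the difference in response at days 3 and 14. The split by direction moved more in bursa: against 11 up and 1 down at day 14, DESeq2 gave 12 and 4, RLE scaling 11 and 2, no filter 9 and 2, and leaving out control bursae 1 and 2 gave 6 and 3. Leaving these 2 out gave 10 up and 9 down at day 3, against 13 and 5, and DESeq2 called 5 up and 4 down between the days, against 5 and 1. Without control bursae 1 and 2, 13 calls of single collagens were lost and 10 were gained. With the replicate block, 0 collagens passed for removal at either day, as without it, and 14 passed between control bursa and control tendon (9 higher and 5 lower in bursa), against 14 without it in a fit of those 2 groups alone (10 and 4). These were not the same genes: Col4a3 and Col4a6 were lost only with the block (adjusted p = 0.0599 and 0.0762), Col4a5 and Col12a1 only without it, and Col17a1 and Col20a1 in both. A further collagen, called lower in bursa in the fit of all libraries, was not tested in these 2 fits. Same-numbered control bursae and tendons did not deviate together (r = -0.25 to 0.284), and among day 3 tendons 1 of 6 pairs had r = -0.034. The scarce collagens are limited by depth: Col6a4 had 5 counts in 5 control bursae, and Col10a1 1 count in 6 day 3 tendons.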
